A study of Mus musculus with 8 samples.

Results

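The sites described here are the 11 genomic positions, away from the miR-124 and miR-128 genes, that were amplified to look for mutations outside the intended targets of a CRISPR/Cas9 treatment of the mouse brain. They were taken as every amplicon whose name gives a chromosome position, which is 11 of the 16 amplicons sequenced. The name of each amplicon also gives a guide. Sa4 is named alone for 7 sites, Sa1 alone for 3 sites and both guides for 1 site, and 0 sites name Sa2.

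Adeno-associated virus carrying CRISPR/Cas9 was injected into the motor cortex of wild-type C57BL/6 mice, and the tissue was taken after 4 weeks. There were 4 constructs: Sa4, directed at miR-124; Sa2, directed at miR-128; Sa1, described as inoperative; and a construct without a guide. For each construct, nuclei were sorted by fluorescence into a Cas9-positive and a Cas9-negative fraction, genomic DNA was amplified and sequenced, and 1 library per fraction was deposited, giving 8 libraries. All the mice, the controls included, received a Cas9 vector. The sequence of the guides, the number of animals behind a library and the marker used for the sort are not given in the sources used here. With 1 library per group there were no replicates, so every interval and test below compares the reads of 2 libraries, not conditions, and covers counting error only.

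Cas9 cuts DNA where the guide pairs with the protospacer and where a short motif, the PAM, follows it. Pairing next to the PAM is as a rule less tolerant of mismatches than pairing at the far end, and sites that resemble the target closely are the ones usually tested for unintended cutting. A cut that is repaired by end joining leaves small insertions or deletions (indels) at the cut site, so an indel share above that of a control is the usual readout. MiR-124, made from 3 gene copies, is a microRNA abundant in neurons.

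The target stretch of each amplicon, taken as its expected sequence without 20 bases on either side, ended in a hexamer of the form NNGRRT (R is A or G) at 11 of 11 sites, the motif read by the Staphylococcus aureus form of Cas9. The targets in the 3 miR-124 copies are shown first, as the reference for the off-target sites. The 6 capitals are the PAM hexamer, and the copies differ from each other only within the first 3 bases.
miR-124-1: tccatacaattaaggcacgcgGTGAAT
miR-124-2: gtcatacaattaaggcacgcgGTGAAT
miR-124-3: tctatacaattaaggcacgcgGTGAAT

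Of the 8 sites that name Sa4, 7 are shown next because their resemblance to this target is what makes them candidates. Each is written 5′ to 3′ as protospacer and hexamer, on the strand that carries the PAM, and capitals mark bases that differ from the miR-124-2 target in an alignment with at most 1 unpaired base in each sequence. A base present in the reference alone leaves no mark. The last 6 bases of each are its hexamer. The remaining one is given by name only. The site chr2-134788648, first in the list, names Sa1 as well.
chr2-134788648: gtcCtCcaattaaggcagcAgtgagt
chr10-114394356: gtcaGacaattaagAcagTgatgaat
chr11-6135151: gtcatacaatAaagTcaGgcAcagagt
chr13-59004015: CtcTtacaTttaaggcacgGgttgagt
chr17-49055768: gtcCtTcaattaaggcagTgcagaat
chr3-70303938: gtcatacaaCtaaAgcaGTcggtgaat
chrX-37055312: gAcataaattaagAcaAgcgttggat

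The 3 sites that name Sa1 alone are written in the same way, since they too resemble the miR-124 target. At chr15-5432906 and chr2-46717939 the alignment leaves 1 base unpaired in each sequence, so 1 of their capitals marks a base with no partner in the reference.
chr15-5432906: ACcatcaattaaggcaAgAGgaagggt
chr2-180302569: gCcatacaattaagCcaccgaggagt
chr2-46717939: ACcatacaataaggcaGgcTgatgaat

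Aligned at the hexamer without gaps, the 8 sites that name Sa4 had 4 to 13 mismatches to the closest miR-124 target. The sites on chr11, chr13 and chr3 had 4 mismatches each, the chrX site had 8, and the other 4 had 12 or 13. The 3 sites with 4 mismatches have protospacers of 21 bases, the length of the miR-124 target, and the other 5 have 20 bases. With 1 gap allowed, all 8 came to 3 or 4 changes. The chr10, chr17 and chr18 sites and chr2-134788648 lacked 1 base opposite base 18 of the reference protospacer, counted from its 5′ end, and the chrX site lacked 1 opposite base 7. All 8 were closer to the miR-124-2 target than to the miR-124-1 target. Of the 3 sites that name Sa1 alone, 2 were closer to miR-124-1 and chr2-180302569 was equally close to both. These 3 came to 3 to 5 changes, with 1 unpaired base at chr2-180302569 and 1 in each sequence at the other two.

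Over the 11 sites, 35 substitutions against miR-124-2 were counted in the gapped alignments. The 7 bases next to the hexamer held 17 of them, the middle bases 8 to 14, counted from the hexamer, held 4, and the far bases 15 to 21 held 14. Unpaired bases are not in these counts. At the 5′ end, sites that name Sa1 gave 2 of the 3 substitutions at base 1 and 3 of the 4 at base 2. The miR-124-1 and miR-124-2 targets differ at these bases, so the far count depends on the reference chosen. At the chr13 site the substitutions were G1C, A4T, A9T and C20G, with the reference base first and positions counted from the 5′ end of the 21-base protospacer, so 3 of the 4 lay in its first 9 bases. At the chr3 site they were T10C, G14A, C18G and G19T, and at the chr11 site T11A, G15T, C18G and G21A, so that in both the first 9 bases matched. The chr3 site was the only one of the 11 with the hexamer of the miR-124 targets, GTGAAT. The GC content of the protospacers was 35% to 50%. The positions are those in the amplicon names; the genome build they refer to is not given in the sources used here, so no gene annotation was attached to them.

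The 8 files held 311737 (Cas9-positive Sa1) to 1013538 reads (Cas9-negative Sa1). Of 6312034 reads in all, 4524541 fell on the off-target amplicons. The files count some reads in a class called Infinity, without their sequences. It follows the highest numbered class, which is 6 mutations for these amplicons of 66 or 67 bases, and is taken here to hold reads with more; the rule behind it is not given in the sources used here. In 13 blocks, a block being the reads of 1 amplicon in 1 read direction and library, this class held 98.7% to 99.99% of the reads, and these blocks were left out. They were the forward reads of chr15-5432906 in 7 libraries (56064 reads, of which 10 had no mutation) and the reverse reads of chr2-134788648 in 6 libraries (612059 reads, of which 106 had none). The chr15 site had no other reads and so gave no value, which left 10 sites and 3856418 reads. The chr10 site, chr2-134788648 and chr2-46717939 gave forward reads only, and chr3-70303938 gave reverse reads only. The other 6 sites were read in both.

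The Cas9-negative Sa4 library stood apart from the other 7 before any comparison. It had the highest rate of substituted bases at 9 of 10 sites, by a median of 1.46 times the middle value of the other libraries (1.14 to 1.67 times over the sites), and the highest Infinity share at 8 of 10. Every result that uses it is given with that in view, and the comparisons with the construct without a guide do not use it.

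Indels near the predicted cut were rare at every off-target site in every library. An indel was counted when it touched the window of 10 bases on either side of the predicted cut, 3 bases before the hexamer. Over the 80 combinations of library and site, the indel share had a median of 0.0180% and a maximum of 0.205%. It was below 0.1% in 74 of the 80 and 0 in 15. In all, 1053 of 3856418 reads carried such an indel. For scale, the same measure in the Cas9-positive Sa4 library was 81.6% at miR-124-1 (7723 of 9468 reads) and 94.4% at miR-124-2 (22944 of 24306 reads).

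The chr3 site was the most deeply read of those that name Sa4. Its Cas9-positive libraries had 77 indel reads of 190616 with Sa4 (0.0404%), 40 of 79968 with Sa1 (0.05002%), 91 of 223971 with Sa2 (0.0406%) and 89 of 181069 without a guide (0.0492%). Its Cas9-negative libraries had 0.0524% with Sa4, 0.0408% with Sa1, 0.0423% with Sa2 and 0.0473% without a guide. The Cas9-positive Sa4 library was the lowest of the 8, and all 8 lay between 0.0404% and 0.0524%. The difference from the construct without a guide was -0.0088 percentage points (Newcombe 95% interval -0.0227 to 0.0049; two-sided Fisher's exact test, adjusted p = 0.667).

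At chr13-59004015 the Cas9-positive Sa4 library had 2 indel reads of 12824 (0.0156%), against 9 of 12915 without a guide (0.0697%). The Cas9-positive Sa1 and Sa2 libraries had 0.0803% and 0.0603%. The Cas9-negative libraries had 0.0568% (Sa1), 0.0565% (Sa2), 0.0704% (Sa4) and 0.0522% (no guide). The library with the guide named for the site was thus the lowest of the 8, and the other 7 lay between 0.0522% and 0.0803%. The difference was -0.0541 points (interval -0.118 to -0.0012), with an adjusted p of 0.360 by Fisher's exact test.

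At chr11-6135151, the third site with 4 mismatches, the Cas9-positive Sa4 library had 3 indel reads of 32211 (0.0093%) and the construct without a guide 8 of 33354 (0.0240%). The 8 libraries ran from 0, in the Cas9-negative Sa4 library with 26120 reads, to 0.0261% in the Cas9-negative Sa1 library, with a median of 0.0203%. A count of 0 there leaves room for a share of up to 0.0115%, at 3 reads of the total. The difference between Sa4 and no guide in the Cas9-positive libraries was -0.0147 points (interval -0.0388 to 0.0069).

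Among the sites with a gapped match, chr17-49055768 had 6 indel reads of 14265 with Sa4 and 7 of 14612 without a guide, both in Cas9-positive nuclei. The libraries ran from 0 (Cas9-positive Sa2) to 0.0499% (Cas9-negative Sa4). The Sa4 value of 0.0421% lay among them, and the difference was -0.0058 points (interval -0.0617 to 0.0496). At chr2-134788648, the site named for both guides, the Cas9-positive libraries had 2 of 57848 reads with Sa1, 11 of 117296 with Sa4 and 13 of 107972 without a guide. The differences from no guide were -0.0086 points for Sa1 (interval -0.0175 to 0.0018) and -0.0027 points for Sa4 (interval -0.0122 to 0.0063).

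The chr10, chr18 and chrX sites were read least and could be bounded less closely. The chr10 site had 305 to 2284 reads per library and 0 indel reads in all 8. In the Cas9-positive Sa4 library, with 656 reads, a count of 0 leaves room for up to 0.457%. The chr18 site had 1 indel read of 2284 with Sa4 and 0 of 1785 without a guide, and the shares differed by 0.0438 points (interval -0.174 to 0.248). The chrX site had the highest indel shares of the 10 sites, with a median of 0.123%. Its Cas9-positive libraries had 3 of 1460 reads with Sa1, 3 of 2529 with Sa2, 3 of 1519 with Sa4 and 2 of 2767 without a guide. The Sa1 value of 0.205% was the highest of the 8 and the Sa4 value of 0.197% the second, and the difference between Sa4 and no guide was 0.125 points (interval -0.106 to 0.510).

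The sites named for Sa1 alone were compared with the Sa1 construct, which is described as inoperative. At chr2-180302569 the Cas9-positive Sa1 library had 3 indel reads of 30396 and the construct without a guide 7 of 81816, a difference of 0.0013 points (interval -0.0099 to 0.0210). At chr2-46717939 they had 7 of 31309 and 7 of 66024, a difference of 0.0118 points (interval -0.0044 to 0.0362).

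Taking each guide at each site that names it gives 11 comparisons with the construct without a guide. The indel share was higher with the guide in 4, lower in 6 and equal in 1, and by Fisher's exact test 0 of the 11 had an unadjusted p under 0.05 (the smallest was 0.0654). The upper bound of the difference was under 0.05 points in 8 of the 11. It was 0.248 points at chr18, 0.510 points at chrX and 0.582 points at chr10. These bounds cover indels in listed sequences only, since Infinity reads were counted as reads without an indel. In the Cas9-positive Sa4 library such reads made up 34.7% at chr17 and 15.6% at chr13. With Infinity reads counted as indels, the intervals for Sa4 were -0.875 to 1.32 points at chr17 and 2.23 to 3.93 points at chr13. Set against the libraries that lack the guide in question, the guide's Cas9-positive library was above all of them in 1 comparison (chr18, on 1 read), within their range in 7 and below all in 3.

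The full family compared the Cas9-positive libraries of all 3 guides with the construct without a guide at every amplicon with used reads in both libraries. A difference was called when the share was higher by at least 0.1 points with an adjusted p under 0.05. Of the 30 tests at off-target sites, 0 were called, while 6.82% of all 44 tests, which include the targeted genes, were. Fisher's exact test gave an unadjusted p under 0.05 in 3 of the 30 and an adjusted p under 0.05 in 1. That one was chr2-46717939 with Sa4, a guide its name does not give: 23 of 62393 reads (0.0369%) against 7 of 66024 (0.0106%), a difference of 0.0263 points (interval 0.0096 to 0.0455, Fisher's exact test, adjusted p = 0.0308), below the minimum difference. Its 6 other libraries lay between 0.0179% and 0.0316%, with the 0.0316% in the Cas9-negative Sa4 library and the construct without a guide in Cas9-positive nuclei the lowest of all 8. In the other 2 Fisher's exact tests the share was lower with the guide: chr17 with Sa2 (0 of 14215 reads, unadjusted p = 0.0157) and chr2-134788648 with Sa2 (unadjusted p = 0.0429).

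The sort fractions of each construct were compared in the same way. Of 40 tests at off-target sites, 0 were called and 0 had an unadjusted p under 0.05 by Fisher's exact test (the smallest adjusted p was 0.453), against 5.08% called among all 59 tests. The share was higher in the Cas9-positive fraction in 17, lower in 19 and equal in 4. For the Sa4 construct the differences ran from -0.0548 to 0.0643 points over the 10 sites.

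The position and kind of the indels were then set beside those at the miR-124 targets. Over the whole amplicons, 4408 off-target reads carried an indel, and in 70 of them (1.59%) it lay within 1 base of the predicted cut. In the Cas9-positive Sa4 library the corresponding share was 97.7% at miR-124-1 and 99.7% at miR-124-2. Over the 8 sites that name Sa4, 6 reads of 371671 in the Cas9-positive Sa4 library and 8 of 355319 in the library without a guide had an indel within 1 base of the cut. Over the 3 sites that name Sa1, 0 reads did in either the Cas9-positive Sa1 library or the library without a guide.

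Deletions of 1 base made up 64.6% of the 5303 off-target indel events, insertions of 1 base 33.0% and longer events 2.47%. Of the 3424 deletions of 1 base, 71.7% fell in runs of at least 2 identical bases, where 47.3% of the bases lie. The share in runs exceeded the share of bases at 8 of 10 sites, with chr10 and chrX as the exceptions. At the window around the cut, chr2-134788648 had 7.77% of its events in 30.3% of its bases, whereas chr11-6135151 had 40.1% in 29.9%.

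The most frequent single indel of each site was seen in 4 to 8 libraries. At chr3 it was a deletion of 1 A, the 5th base before the cut, seen in 317 reads over all 8 libraries, at 0.0184% to 0.0315% of reads, and highest with the guide-free construct in Cas9-positive nuclei. In the Cas9-positive Sa4 library the leading indel at this site was a deletion of 1 C, the 24th base after the cut, in 41 reads (0.0215%), against 23 reads (0.0127%) without a guide; over the 8 libraries it ran from 0.0114% to 0.0238%. At chr2-134788648 a deletion of 1 G, the 14th base after the cut, led in the Cas9-positive libraries of Sa1 (25 reads, 0.0432%), Sa4 (36 reads, 0.0307%) and no guide (43 reads, 0.0398%) alike. At chr17 it was a deletion of 1 A, the 19th base after the cut, with 5 reads with Sa4, level there with 1 other indel, and 5 without a guide. At the other sites the leading indel in the library of the named guide rested on 5 reads or fewer: 5 at chr11, 4 at chr2-46717939, 3 at chr10, 2 each at chr13, chrX and chr2-180302569, and 1 at chr18. At the miR-124 targets, by contrast, the leading indel in the Cas9-positive Sa4 library was an insertion exactly at the cut, of a C in 2040 of 9468 reads at miR-124-1 (21.5%) and of a T in 10257 of 24306 reads at miR-124-2 (42.2%).

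The Infinity class was examined because, if it holds reads with more than 6 mutations, a long deletion would be counted there and not as an indel. Each deleted or inserted base counts as a mutation in the files: all 69 listed off-target sequences with a single indel of 2 or more bases and no other change stood in the class of its length. The longest deletion listed at an off-target site had 5 bases and the highest listed class 6 mutations. The Infinity share differed widely between sites. Its median over the 8 libraries was 0.922% at chr2-134788648, 1.02% at chr2-180302569, 2.26% at chr11, 6.30% at chr3, 7.16% at chr2-46717939, 8.21% at chr18, 8.44% at chr10, 12.5% at chr13, 18.9% at chrX and 34.8% at chr17. Substituted bases varied with it, from a median of 1.24 per kilobase at chr2-180302569 to 32.8 at chr17, and reads without any mutation made up 93.2% and 12.8% of the reads of these 2 sites. The read directions of 1 amplicon also differed: at chr13 the share was 20.8% to 36.8% in forward reads and 3.35% to 7.87% in reverse reads.

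Against the construct without a guide, the Infinity share of a Cas9-positive library differed by at least 1 point with an adjusted p under 0.05 in 4 of the 30 off-target tests (15.9% of all 44 tests), and 2 were higher and 2 lower. Both that were higher were Sa4 at sites that name Sa4, as 8 of the 10 sites tested do. Of the 2 lower calls, 1 was also Sa4 at such a site. At chr13-59004015 the share was 15.6% with Sa4 (1999 of 12824 reads) and 12.5% without a guide (1608 of 12915), a difference of 3.14 points (interval 2.29 to 3.99, Fisher's exact test, adjusted p = 4.8e-12). It was 12.6% with Sa1 and 12.5% with Sa2, and in the Cas9-negative libraries 12.5% (Sa1), 11.98% (Sa2), 12.1% (no guide) and 20.2% (Sa4). The Cas9-positive Sa4 library was thus above the 6 libraries without Sa4, which lay between 11.98% and 12.6%, and, over both read directions, below the Cas9-negative Sa4 library.

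At this chr13 site the excess was present in each read direction: 24.5% against 21.6% in forward reads (difference 2.87 points, Fisher's exact test, adjusted p = 0.0013) and 7.87% against 4.28% in reverse reads (difference 3.59 points, adjusted p = 1.3e-17). The Cas9-positive Sa2 library, whose guide the site does not name, also stood above no guide in reverse reads alone, at 5.53% (difference 1.24 points, Fisher's exact test, adjusted p = 0.0050). Without a guide, the Cas9-positive fraction stood above the Cas9-negative one in reverse reads, at 4.28% against 3.35%. That difference was 0.934 points, below the minimum difference (Fisher's exact test, adjusted p = 0.0019). Reads with 4 to 6 mutations, the classes just below Infinity, made up 7.28% in the Cas9-positive Sa4 library and 7.17% to 7.55% in the 6 libraries without Sa4. In the Cas9-negative Sa4 library they made up 10.3%. In reverse reads alone the order of the Sa4 fractions was the other way, with Infinity shares of 7.87% in Cas9-positive and 6.94% in Cas9-negative nuclei. The number of Infinity reads per read with 4 to 6 mutations was 2.14 in the Cas9-positive Sa4 library, 1.63 to 1.75 in the 6 without Sa4 and 1.96 in the Cas9-negative Sa4 library. The sequences of the Infinity reads are not in the files used here, so long deletions, other products and reads with many substitutions cannot be told apart in them.

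The other call above no guide was chrX-37055312 with Sa4, at 21.4% (325 of 1519 reads) against 18.0% (498 of 2767), a difference of 3.40 points (interval 0.921 to 5.94, Fisher's exact test, adjusted p = 0.0364). The Cas9-positive Sa1 and Sa2 libraries had 19.8% and 20.4%, and the Cas9-negative libraries 17.8% (Sa1), 17.7% (Sa2), 17.3% (no guide) and 28.5% (Sa4). In forward reads alone this difference was 2.41 points (Fisher's exact test, adjusted p = 0.610) and in reverse reads 4.73 points (adjusted p = 0.0170). Reads with 4 to 6 mutations made up 9.81% with Sa4 and 10.2% to 12.5% in the 6 libraries without it. At the other sites that name Sa4 the difference in Infinity share between Sa4 and no guide was 0.317 points at chr3 (6.28% against 5.96%, Fisher's exact test, adjusted p = 0.0004, below the minimum difference), 0.228 points at chr17, -0.0576 points at chr11, 0.0018 points at chr2-134788648 and 2.01 points at chr10 (adjusted p = 0.432). Among the 10 sites, the Cas9-positive Sa4 library lay above all 6 libraries without Sa4 at 2, chr13 and chrX. In forward reads at chrX it did not, with 25.0% against 25.8% in the Cas9-positive Sa2 library. The same count was not made for the other libraries.

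Both lower calls were at chr18-57173043, where the Infinity share was 8.27% with Sa4 and 7.95% with Sa2 against 17.9% without a guide, differences of -9.65 points (Fisher's exact test, adjusted p = 6.8e-19) and -9.98 points (adjusted p = 1.5e-24). The Cas9-positive Sa1 library had 18.4% there. The Cas9-negative libraries had 6.71% (Sa1), 6.54% (Sa2), 8.14% (Sa4) and 12.2% (no guide). Reads at this site numbered 741 (Sa1), 3485 (Sa2), 2284 (Sa4) and 1785 (no guide) in Cas9-positive nuclei and 5765 to 15456 in Cas9-negative nuclei. The shares did not follow these numbers throughout, since the third-highest share, in the Cas9-negative library without a guide, came with 11949 reads. The part of depth in this difference was not tested.

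Between sort fractions the Infinity share differed by the same rule in 10 of 40 off-target tests (27.1% of all 59 tests). All 6 that were lower in Cas9-positive nuclei belonged to the Sa4 construct: chr17 (34.7% against 54.3%), chrX (21.4% against 28.5%), chr13 (15.6% against 20.2%), chr2-46717939 (7.17% against 11.1%), chr3 (6.28% against 9.41%) and chr11 (2.26% against 3.74%). All 6 rest on the Cas9-negative Sa4 library, whose substitution rate also stood apart. At chr13 the call held in forward reads (24.5% against 36.8%) and was lost in reverse reads, where the difference was 0.934 points the other way (Fisher's exact test, adjusted p = 0.105). The 4 that were higher in Cas9-positive nuclei were chr18 with Sa1 (11.6 points), without a guide (5.76 points) and with Sa2 (1.41 points), and chrX with Sa2 (2.79 points). The chr18 call with Sa2 was lost in each read direction (2.48 points forward and 0.440 points reverse, Fisher's exact test, adjusted p = 0.0580 and 0.502), and that at chrX was lost in forward reads (2.26 points, adjusted p = 0.363). At chr18 the Sa4 construct differed by 0.140 points over both directions, by -5.28 points in forward reads and by 3.02 points in reverse reads.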

How the data were processed

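Per the submitters' processing notes, reads were handled with bcl2fastq and cutadapt; versions, the mutation counter and the build are not given in the sources used here. Each deposited file lists, per amplicon and read direction, the expected sequence, every mutated sequence with its whole-number read count and the reads in each class of mutation number; these counts, recorded under another unit because the files have no single count column, are used as deposited by the authors. Per the labels, amplicons were made with a QIAseq kit; no molecular identifiers are mentioned, so reads may not be independent molecules.

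Entries were placed on 1 orientation, and 142 reads of 142 off-target sequences could not be placed. Blocks with over 90% of reads in the Infinity class were left out. Indels within 10 bases of the predicted cut, 3 bases before the hexamer, were counted over all reads, Infinity reads included. Pairs of libraries were tested with Fisher's exact test, two-sided. Benjamini-Hochberg adjustment covered every amplicon with used reads in both libraries, the targeted ones included. Shares have Wilson and differences Newcombe 95% intervals; the limit for a count of 0 is 3 reads. The indel test against no guide was also run on simulated reads, drawn independently and called on the adjusted p alone, without the minimum difference. The other tests were not simulated. All 11 sites are named; the allele named for each is the indel with most reads in the Cas9-positive library of its guide. The sites and lists were chosen with earlier results of these data known.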

Additional observations from a re-analysis of the deposited data

How the results depend on the processing

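Of 161 alternative values for 23 results, 138 stayed within the interval of the value reported or within 1.5 times the count, and 23 moved beyond it. The differences between a named guide and no guide, none of which was called, took the other sign in 17 of 116 alternatives, at 9 of the 11 comparisons, so their signs carry no weight. The count of 0 called indel tests became 4 against no guide and 4 between sort fractions when Infinity reads were counted as indels. Against no guide these were chr13 (3.08 points), chrX (3.52) and chr3 (0.309) with Sa4, and chr3 with Sa1 (0.359); between fractions, chr18 with Sa1 (11.6), Sa2 (1.39) and no guide (5.74), and chrX with Sa2 (2.91). That choice also moved the difference between a named guide and no guide to 0.0147 points at chr2-134788648 (Sa1), 0.0310 at chr2-180302569, 0.141 at chr2-46717939, 2.01 at chr10, -0.0722 at chr11, 0.222 at chr17 and -9.61 at chr18. Counting indels anywhere in the amplicon moved it to -0.0225 points at chr2-134788648 (Sa4), 0.0150 at chr3 and -0.292 at chrX. Indels of at least 2 bases, or entries of at least 10 reads, gave 0 at chr13. With 1 gap allowed, mismatches fell to 4 at chr2-134788648, 4 at chr10, 4 at chr17, 3 at chr18 and 4 at chrX; the 20 bases next to the hexamer gave 3 at chr13. Called Infinity differences from no guide numbered 3 in forward reads, 5 in reverse reads and 5 with every block, against 4. Those between fractions numbered 8, 9 and 12, against 10. Of the 10, the chr13 difference with Sa4 took the other sign in reverse reads (0.934 points). The calls that every block added were all at chr2-134788648: Sa1 against no guide (0.944% against 50.2%), and Sa1 and no guide between fractions. In each of them only 1 library had reverse reads, nearly all in the Infinity class. Windows of 1 base and the counting of unplaced sequences as indels were chosen after seeing the data, and both left 0 calls. No pairing by replicate was possible because each group has 1 library, so that no groups share 2 replicate numbers. No replicate could be left out for the same reason. Fractions were set side by side within each construct, and no test paired them over the 4 constructs. Depth limits chr10, chr18 and chrX most.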

Other observations

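The share of all reads in a library that were used reads of a site differed between sort fractions at some sites. The chr18 site took 0.238% of reads with Sa1, 0.360% with Sa2, 0.283% with Sa4 and 0.219% without a guide in Cas9-positive nuclei, and 1.52%, 1.35%, 0.933% and 1.27% in Cas9-negative nuclei, so it was lower in the Cas9-positive library of all 4 constructs and the fractions did not overlap. The fractions also did not overlap at chr10, with 0.0455% to 0.104% in Cas9-positive and 0.112% to 0.225% in Cas9-negative nuclei. At chr2-134788648 the used reads, all forward, were apart the other way, with 13.2% to 18.6% in Cas9-positive and 6.67% to 11.8% in Cas9-negative nuclei. Its reverse reads were left out of these shares and numbered 61953 to 165583 in 6 libraries. The Cas9-positive Sa1 library and the Cas9-negative library without a guide had no reverse reads there. The separation holds for forward reads alone and not for the amplicon as a whole. At the other sites with used reads the ranges overlapped. Of these, chr13, chrX and chr2-180302569 were lower in the Cas9-positive library of every construct. At chr13 the share was 1.20% to 2.00% in Cas9-positive and 1.69% to 3.65% in Cas9-negative nuclei. These shares have no replicates and were not tested. The targeted amplicons were not compared in this way, so it is not known whether such differences are particular to the off-target sites. Shares within a library also depend on each other, since a higher share at 1 amplicon lowers the rest.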
